A study of Danio rerio with 9 samples.

Results

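Gene expression in the atrioventricular tissue of the zebrafish (Danio rerio) heart 48 h after ablation of valve cells was compared with that of uninjured fish. The comparison used 6 of the 9 libraries, 3 per group. It covered the 16665 genes, of 21692 in the deposited table, that had a normalised read count of 10 or more in at least 3 of the 6 libraries. In the 48 h group, valve cells had been ablated by bathing each fish, alone and in the dark, in 2.5 mM metronidazole for 6 h; the uninjured group carries no further description. The remaining 3 libraries were taken 21 d after ablation, and their values are given as a description only. Each library came from 2 hearts, whose atrioventricular region was cut from cryosections with a laser, and was made from 20 ng of RNA after polyA selection and read as 2 × 75 bp pairs. The labels name neither the transgenic line and the promoter that made cells sensitive to the drug, nor the age of the fish, and do not say whether uninjured fish received the drug. Nothing in them states that libraries of a group are separate biological samples. The p-values therefore describe how these libraries scatter, which may be technical.

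Metronidazole is harmless to most vertebrate cells but is turned into a toxic compound by bacterial nitroreductase, so that a transgene expressing this enzyme in chosen cells lets them be removed at a chosen time. Heart valves consist of an endothelial sheet over interstitial cells that keep up a matrix of collagen, proteoglycan and elastin. Adult zebrafish rebuild heart tissue after injury, and the early response of the heart is known to include activation of the epicardium and endocardium, entry of leukocytes, retinoic acid synthesis and cytokine signalling.

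Normalised read counts summed to between 15383031 and 21616553 per library. About 15800000 to 21500000 reads lay behind these sums, as estimated from the steps between low values. Spearman correlations across genes were 0.892 to 0.923 between libraries of 1 group and 0.835 to 0.877 between an uninjured and a 48 h library. In uninjured libraries the valve interstitial and fibroblast markers took 1.04 to 1.22% of the values, endothelial and endocardial markers 0.189 to 0.276%, cardiomyocyte markers 4.81 to 5.93% and red cell markers 4.01 to 8.34%. RNA of heart muscle and blood was therefore counted beside that of the valve. In such bulk samples, fewer cells of a type and less RNA per cell cannot be told apart.

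At 48 h, 779 genes, 4.67% of those tested, were higher than in uninjured tissue and 1137, or 6.82%, were lower (limma, adjusted p under 0.05). A change of at least 2-fold was found for 622 of the higher and 820 of the lower genes, and of at least 4-fold for 292 and 309. The median log2 fold change was 1.65 among genes that rose and −1.39 among those that fell, against 0.01 over all tested genes. The 3 libraries of each group did not overlap for 774 of the risen and 1119 of the fallen genes. A call at this threshold nearly requires such separation, so these counts add no support to the calls. The share without overlap among all tested genes is not given here. Risen genes made up 40.7% of the calls. When every column was rescaled to the same total, the median of all genes moved to 0.29, 1347 genes were called higher and 652 lower, and risen genes made up 67.4%. All 779 risen genes kept their call under that scaling and 652 of the fallen genes did, and no called gene changed sign.

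**Figure D1:**
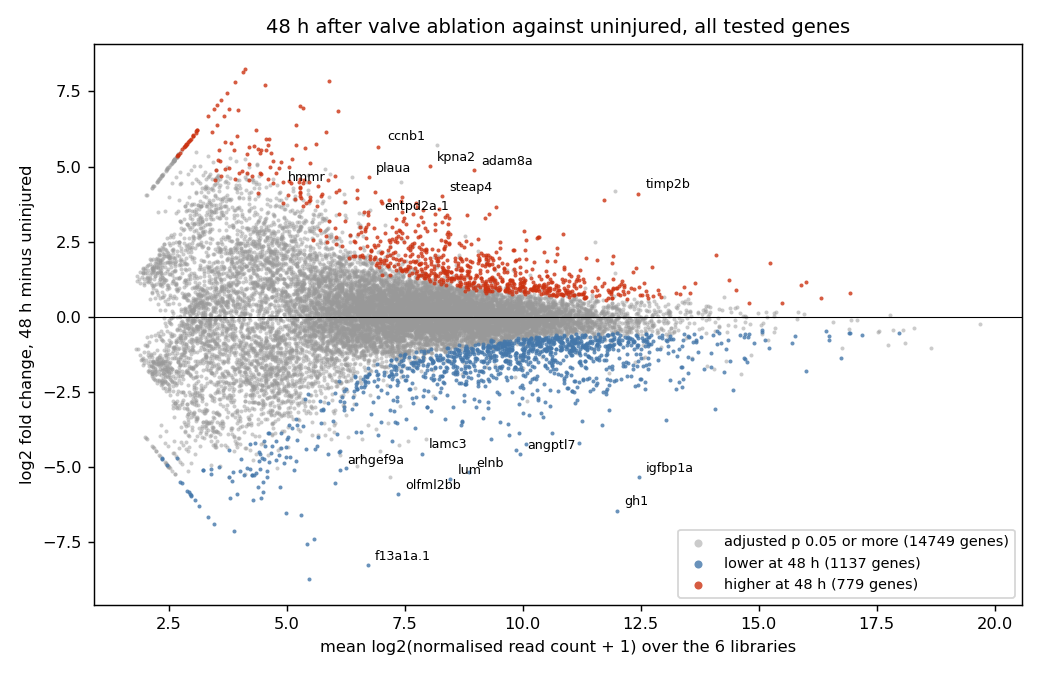
Each point is 1 of the 16665 tested genes, placed by its mean log2(normalised read count + 1) over the 6 libraries (horizontal axis) and its log2 fold change, 48 h minus uninjured (vertical axis), with the 779 genes that rose in red and the 1137 that fell in blue. The named genes with the largest changes stand at both edges, among them adam8a at 4.88 and gh1 at −6.45.

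The largest increases among abundant genes included 2 proteases and a metalloreductase. The transcript of adam8a, a membrane-bound metalloprotease-disintegrin of leukocytes, was at 116, 55 and 120 normalised counts in the uninjured libraries and at 3147, 2969 and 2167 at 48 h. Its log2 fold change was 4.88 ± 0.44 (SE), or 29.5-fold, with an adjusted p of 2.3e-07. Urokinase (plaua), which activates plasminogen, was at 10, 87 and 9 and then at 637, 492 and 491, a 25.2-fold difference (adjusted p = 0.00143). All 3 libraries at 48 h lay far above the highest uninjured library for both proteases. Groups that do not overlap were a condition for naming these genes. The metalloreductase steap4, which reduces iron and copper at membranes, read 98, 89 and 52 before and 1005, 1987 and 1001 after ablation, 16.2-fold higher (adjusted p = 1.7e-05). By 21 d adam8a read 105, 63 and 228 and steap4 54, 42 and 156, values that overlap those of uninjured tissue.

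The nuclear import receptor kpna2 rose 32.2-fold, from 43, 35 and 61 to 1872, 1115 and 1574 (adjusted p = 4.8e-06). The mitotic cyclin ccnb1 rose 49.9-fold, and hmmr, which binds hyaluronan and the mitotic spindle, 18.6-fold. Of signalling genes, ptpn6, a tyrosine phosphatase of blood cells, was at 22, 7 and 47 and at 325, 434 and 407 at 48 h, 18.7-fold higher (adjusted p = 0.00201). The ectonucleotidase entpd2a.1, which breaks down extracellular ATP, rose 17.9-fold, though reads of tandem duplicates such as this gene cannot be assigned with certainty. The protein coded by si:ch211-69g19.2 is not described in the tables used here, and this gene had the largest increase in this group, from 3, 0 and 62 to 1041, 573 and 639 (115-fold, adjusted p = 0.00113). In each of these genes the lowest 48 h library lay above the highest uninjured one. This was a condition for naming them, so it adds no support.

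Some large increases were unequal between the 48 h libraries. The metalloprotease inhibitor timp2b was at 1703, 1292 and 1129 in uninjured tissue and at 13361, 22882 and 39842 at 48 h, a 17-fold increase with an adjusted p of 0.0261. That call was lost without any one of 5 libraries, with adjusted p between 0.0702 and 0.0811, and was kept without 48 h replicate 1. The interleukin-13 receptor subunit il13ra1 was at 0, 82 and 25 and then at 209, 341 and 505, 25.6-fold higher (adjusted p = 0.0185). Its log2 fold change of 4.68 was 2.83 without uninjured replicate 1, the library at 0. Its adjusted p was 0.0536 without 48 h replicate 2 and 0.0623 without 48 h replicate 3. Adrenomedullin b (admb), a vasodilator peptide, was at 0, 1 and 19 in uninjured libraries and at 68, 1088 and 1109 at 48 h. Its adjusted p of 0.00822 became 0.0554 without 48 h replicate 2 and 0.0621 without replicate 3, the libraries with the high values.

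The largest decreases included a coagulation factor and 2 matrix proteins. Coagulation factor XIII A (f13a1a.1), the enzyme that crosslinks fibrin, was at 4978, 950 and 1328 in uninjured tissue and at 13, 0 and 14 at 48 h, which is −8.28 ± 1.25 (SE) on the log2 scale (adjusted p = 0.0074). It is 1 of several tandem duplicates, so its reads are uncertain, and it stood at 11956, 3419 and 3833 at 21 d. Lumican (lum), a proteoglycan that spaces collagen fibrils, went from 1621, 3706 and 2024 to 117, 17 and 74, 42.4-fold lower (adjusted p = 2.8e-04). Elastin b (elnb) was 36-fold lower, at 1961, 4224 and 2580 against 89, 81 and 61 (adjusted p = 3.0e-09). Both matrix genes were still below every uninjured library at 21 d, with lum at 380, 656 and 1001 and elnb at 597, 439 and 417.

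The secreted protein angptl7 fell 23.7-fold, from 4515, 4699 and 5074 to 178, 97 and 462 (adjusted p = 2.2e-05). The laminin chain lamc3 fell 23.5-fold (adjusted p = 0.00154). Fibulin 5 (fbln5), which helps assemble elastic fibres, read 2622, 3078 and 4349 in uninjured libraries and 119, 227 and 360 at 48 h, 15.3-fold lower (adjusted p = 8.5e-07). The Cdc42 exchange factor arhgef9a was 34-fold lower, at 631, 320 and 333 against 20, 0 and 81 (adjusted p = 0.0092). The neuregulin receptor erbb3a fell from 371, 397 and 552 to 44, 0 and 51 (adjusted p = 0.0318). Leaving out uninjured replicate 1, 2 or 3 ended this call, with adjusted p of 0.077, 0.0669 and 0.0579, as did equal column totals (0.0501). The secreted olfactomedin protein olfml2bb, called at an adjusted p of 0.0409, reached 0.0661 without 48 h replicate 1 and 0.0769 to 0.0972 without an uninjured library. Growth hormone (gh1) and the growth factor carrier igfbp1a, at the foot of the plot of all genes, fell 87.2-fold and 40.6-fold.

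**Figure D2:**
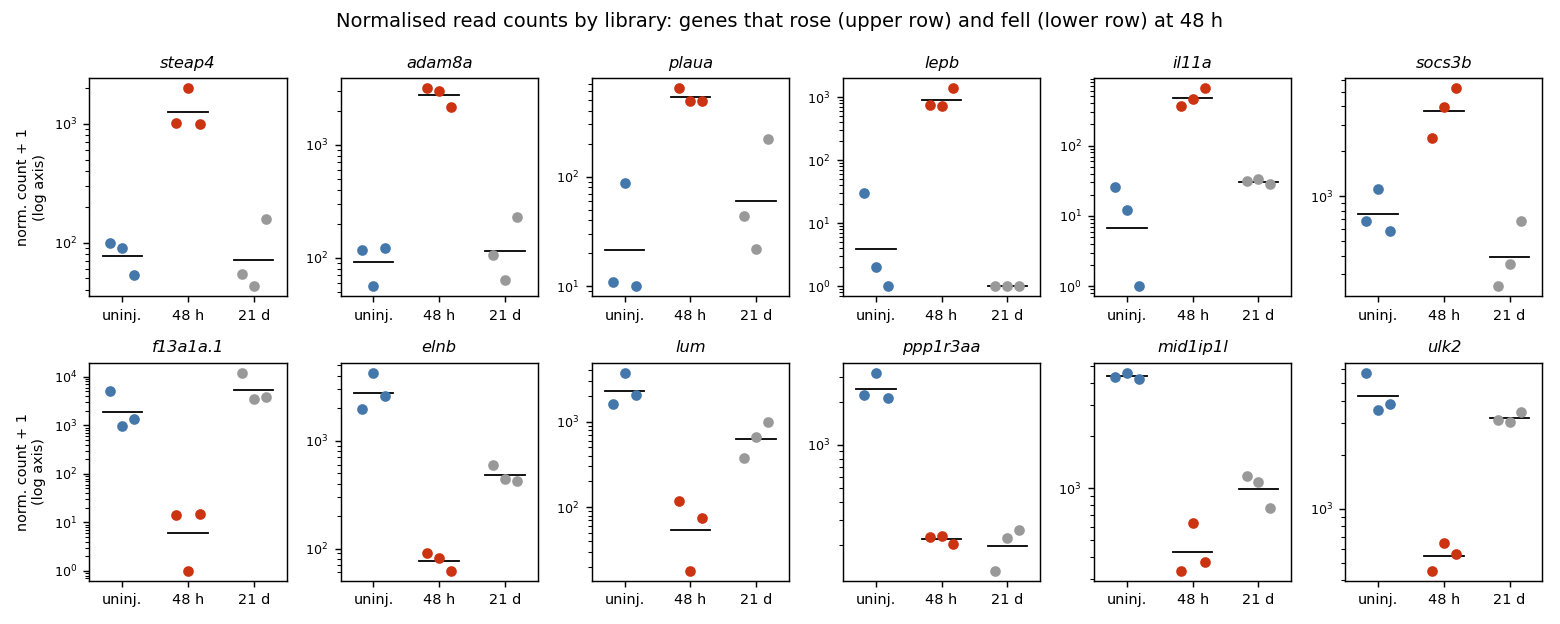
Normalised read counts plus 1 (log axis, a separate scale per panel) of 6 genes that rose (upper row) and 6 that fell (lower row), with 1 point per library and a line at the mean of log2(value + 1) in each group of 3. No 48 h point overlaps an uninjured point in any panel, which a call nearly requires. The 21 d points of ppp1r3aa stay low and those of ulk2 lie near the uninjured ones.

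A smaller set of genes was listed at 0 in all 3 libraries of 1 group and at 50 or more in all 3 of the other, so that no fold can be given. Of these, 9 were at 0 in uninjured tissue. They include clcf1, a cytokine of the interleukin-6 family, at 93, 118 and 207 at 48 h, and birc5a, the mitotic and anti-apoptotic protein survivin, at 174, 267 and 67. The immune receptor havcr2 was at 61, 94 and 68 and sh3bp1 at 58, 74 and 64, and 5 further genes have only clone-based names. In the other direction 4 genes were at 0 in every 48 h library, among them myostatin b (mstnb), a growth inhibitor of muscle, at 224, 98 and 75 in uninjured tissue. The mitochondrial ADP/ATP carrier slc25a4 was at 85, 181 and 68 there.

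Genes were then grouped into 32 process lists and 14 lists of cell markers. A list is described by how many of its tested members rose or fell, against the 4.67% and 6.82% of all tested genes. Its median log2 fold change is set against 0.01. Members and lists were chosen with earlier results of these data known. A share above that of all tested genes may therefore follow from the choice, and no list was tested. In the plot of process lists, the actin machinery of migrating leukocytes had the highest share of risen members. The lists with the highest share of fallen members were glycogen, creatine and high-energy phosphate, retinoic acid, serine and one-carbon synthesis, and channels and pumps.

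**Figure D3:**
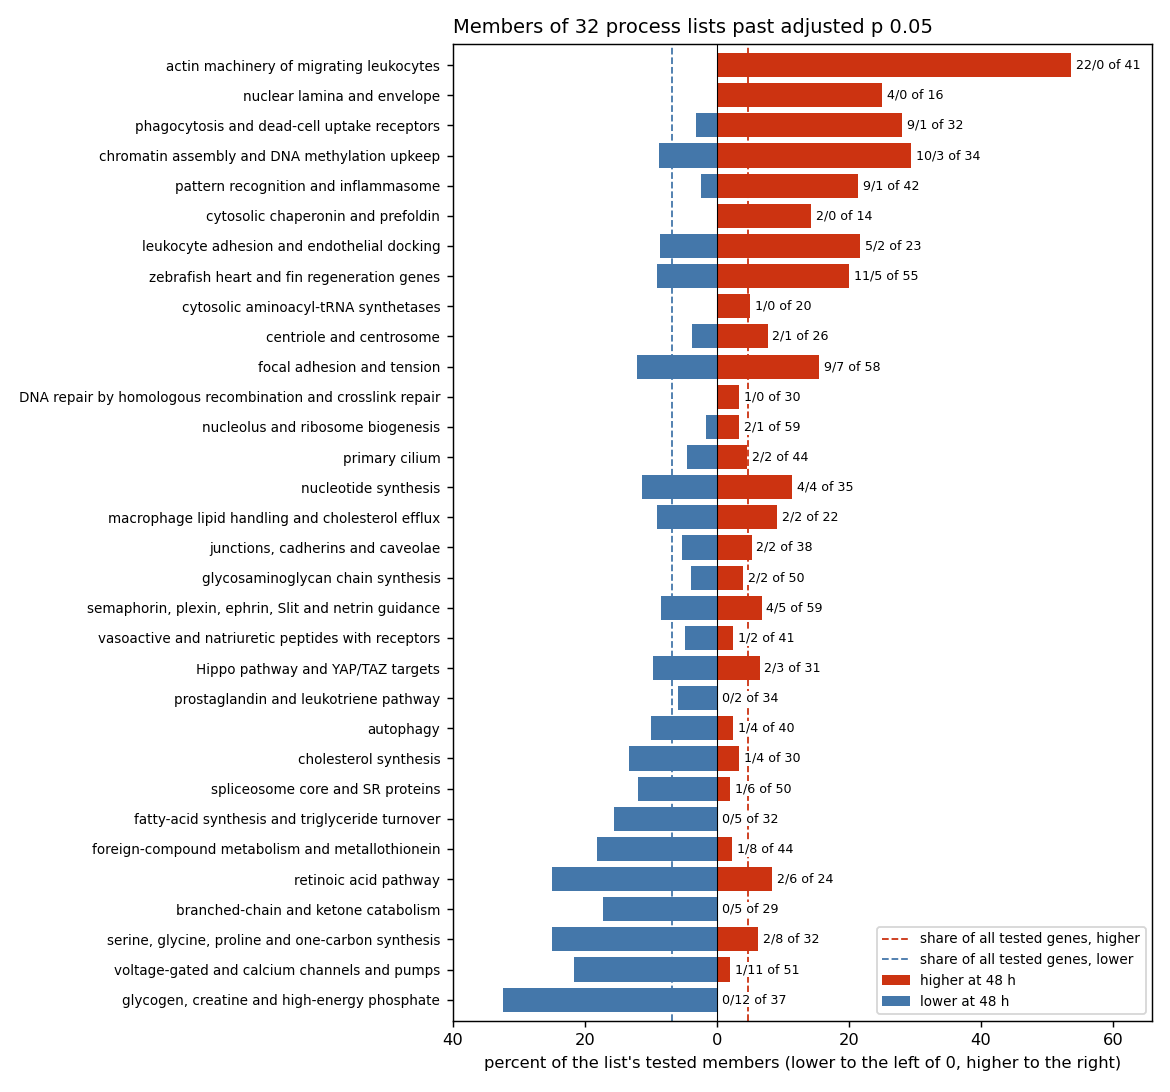
For each of 32 process lists, the percent of tested members that were higher (red, right of 0) or lower (blue, left of 0) at 48 h, with the counts higher/lower of tested printed beside the bars and dashed lines at the shares of all tested genes, 4.67% and 6.82%. The actin machinery list, with 22 of 41 members higher and 0 lower, stands at the top, and the glycogen and creatine list, with 0 higher and 12 of 37 lower, at the bottom.

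Among genes that leukocytes use to move, 22 of 41 tested members of the actin machinery list were higher and 0 lower, with a median of 1.34. Profilin (pfn1), which feeds actin monomers to growing filaments, was at 681, 475 and 420 in uninjured tissue and at 2276, 3334 and 4669 at 48 h, 6.38-fold higher (adjusted p = 8.1e-07). The actin-monomer binder tmsb4x, among the most highly counted genes of the list, read 14550, 13459 and 14100 and then 25412, 34249 and 38983 (2.31-fold, adjusted p = 3.7e-05). Of the Arp2/3 complex, which nucleates branched filaments, arpc1b, arpc4, arpc5a and arpc5b rose between 2.53-fold and 3.61-fold. All their 48 h libraries lay above all uninjured ones, which a call nearly requires.

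Members known from blood cells were among those that rose. The transcript of rac2, which drives actin assembly in leukocytes, was at 115, 47 and 74 in uninjured libraries and at 397, 597 and 431 at 48 h (6.27-fold, adjusted p = 0.00427). The Wiskott-Aldrich protein wasb, which switches on Arp2/3, went from 40, 38 and 43 to 248, 215 and 300, 6.13-fold higher (adjusted p = 0.00433). The cortactin relative hcls1 rose 8.38-fold, pleckstrin (plek) 8.82-fold and coronin (coro1a) 3.57-fold. At 21 d rac2 was back at 79, 23 and 62, while hcls1 was at 240, 407 and 268, above its uninjured values of 166, 49 and 109. The list's summed share of all values was 0.288 to 0.359% in uninjured libraries and 0.633 to 0.795% at 48 h.

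Uptake and sensing genes moved the same way. In the list of phagocytosis and dead-cell uptake receptors, 9 of 32 tested members rose and 1 fell (median 0.52), and in that of pattern recognition and inflammasome genes 9 of 42 rose and 1 fell (median 0.72). The scavenger receptor marco was at 478, 451 and 334 and then at 2530, 1592 and 1823, 4.66-fold higher (adjusted p = 6.9e-05). The mannose receptor mrc1b rose 4.22-fold, from 1508, 589 and 618 to 3670, 3397 and 3330 (adjusted p = 2.0e-04). The receptor havcr1, which binds phosphatidylserine on dying cells, rose 10.7-fold, from 102, 56 and 40 to 747, 707 and 551 (adjusted p = 6.5e-04). The engulfment adaptor elmo1 rose 3.02-fold. In the sensing list, the flagellin receptor tlr5b rose 2.31-fold (adjusted p = 0.00111), and the transcription factors irf1b and irf8 3.48-fold and 3.26-fold. The inhibitor of NF-kB nfkbiab went down, from 3850, 2797 and 2777 to 1254, 1867 and 1481 (2.05-fold, adjusted p = 0.00184). The count of 9 risen sensing genes fell to 3 without 48 h replicate 1 or uninjured replicate 2, to 4 without 48 h replicate 2 or 3, and to 5 without uninjured replicate 3.

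Genes that dock leukocytes on vessel walls included members of the leukocyte and of the endothelial side. E-selectin (sele), the endothelial lectin that slows rolling leukocytes, was at 733, 785 and 646 in uninjured tissue and at 4421, 5545 and 4539 at 48 h. Its log2 fold change was 2.74 ± 0.20 (SE), 6.68-fold, with an adjusted p of 3.0e-08, and at 21 d it read 1064, 1179 and 1296. The endothelial junction protein esama rose 4.46-fold, from 347, 201 and 510 to 1808, 1478 and 1189 (adjusted p = 8.4e-05). On the leukocyte side the beta 2 integrin itgb2 rose 3.67-fold, from 577, 337 and 590 to 2116, 1341 and 2013 (adjusted p = 1.0e-04). Of this list's 23 tested members, 5 rose and 2 fell, with a median of 0.89. Without uninjured replicate 2, 3 members were called higher. No member was called lower with equal column totals, and 1 was without 48 h replicate 1 or 2 or uninjured replicate 1 or 2.

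Cell markers changed alongside these groups. Of 27 macrophage markers 21 rose and 0 fell (median 2.22), and their sum went from 0.0273 to 0.037% of all values in uninjured libraries to 0.126 to 0.201% at 48 h. Granulin (grna), a secreted growth factor of macrophages, was at 434, 310 and 443 and then at 4287, 2030 and 2567 (7.19-fold, adjusted p = 7.7e-07). The actin bundler lcp1 rose 6.13-fold, from 505, 415 and 625 to 3851, 2022 and 3885 (adjusted p = 1.5e-06). Of 21 tested neutrophil markers 7 rose and 0 fell, and the sum went from 0.0234 to 0.0385% to between 0.0722 and 0.0866%. That count was 4 without 48 h replicate 1 or 2 and 3 without replicate 3. The markers marco, havcr1 and coro1a stand both here and in the lists above. The neutrophil list holds adam8a, described above as a gene of leukocytes, at 116, 55 and 120 and then at 3147, 2969 and 2167. The summed neutrophil counts were 7470, 5051 and 4757 in uninjured libraries and 13768, 12981 and 13316 at 48 h. This 1 gene is therefore a large part of the rise of that sum. The part that the macrophage and neutrophil markers have in the changes of the movement, uptake and sensing lists was not tested.

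**Figure D4:**
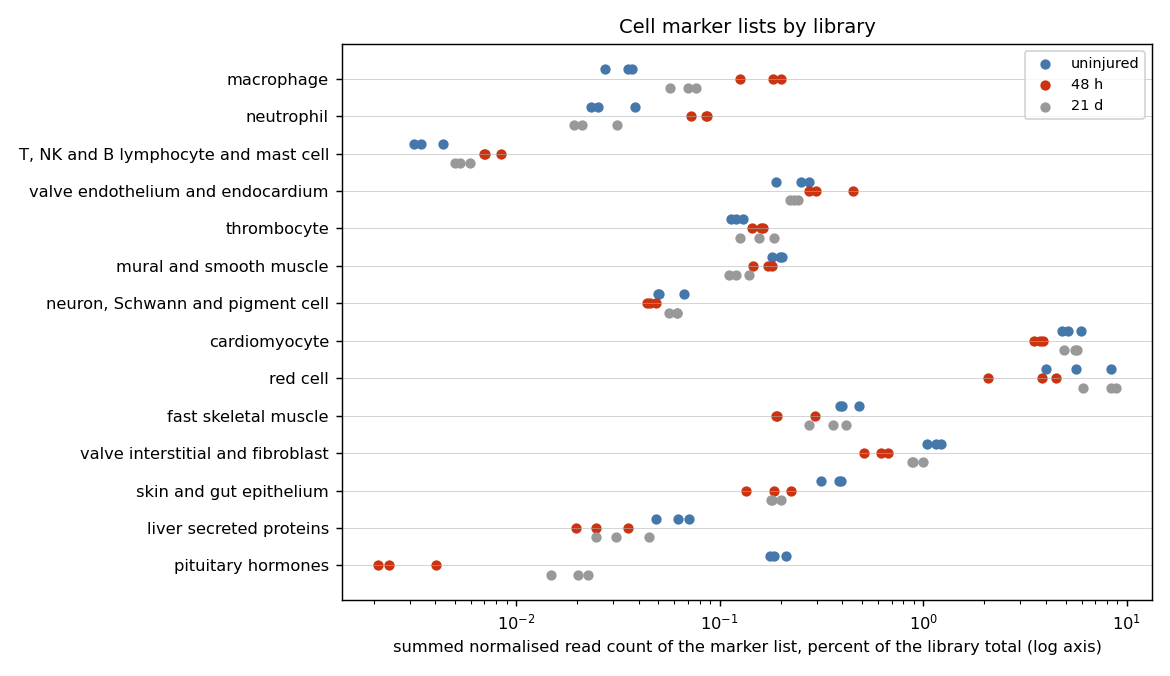
The summed normalised read count of each of 14 cell marker lists as a percent of the library total (log axis), with 1 point per library, uninjured in blue, 48 h in red and 21 d in grey, and the lists ordered by the ratio of the 48 h to the uninjured mean. Macrophage markers lie at 0.126 to 0.201% at 48 h against 0.0273 to 0.037% in uninjured tissue, and the valve interstitial markers at 0.513 to 0.674% against 1.04 to 1.22%.

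Nuclear proteins that package DNA formed a further group with many increases. Among 34 genes of chromatin assembly and DNA methylation upkeep, 10 rose and 3 fell, with a median of 0.73. The architectural protein hmga1a was at 1505, 2656 and 2104 and then at 8226, 5875 and 7372 (3.48-fold, adjusted p = 6.6e-06). The nucleosome-binding protein hmgn2 rose 3.08-fold, from 3717, 3504 and 2284 to 10614, 8752 and 9341 (adjusted p = 8.4e-06). Both genes that copy DNA methylation after replication rose, uhrf1 5.35-fold (adjusted p = 1.5e-04) and the methyltransferase dnmt1 3.48-fold (adjusted p = 0.00601). The uhrf1 values were 120, 148 and 186 in uninjured libraries, 935, 776 and 708 at 48 h and 129, 241 and 154 at 21 d. A related high-mobility-group gene, hmgb3a, moved the other way, from 2778, 3320 and 2546 to 1402, 665 and 1084, 2.85-fold lower (adjusted p = 2.1e-04). The 10 risen members became 17 with equal column totals and 6 without 48 h replicate 3.

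Around this group the picture was mixed. In the nuclear lamina and envelope 4 of 16 members rose and 0 fell. Lamin B2 (lmnb2) was at 640, 609 and 530 and then at 1759, 1439 and 1722 (2.76-fold, adjusted p = 1.5e-04). Without 48 h replicate 2 or 3, or uninjured replicate 1 or 2, only 1 or 2 members were called higher, and with equal column totals 8 were. The spindle-pole protein aspm rose 11.8-fold (adjusted p = 1.8e-04), unequally, from 59, 112 and 48 to 1588, 438 and 786. Nucleotide synthesis had 4 members higher and 4 lower of 35, and 2 higher without 48 h replicate 1 or 3. Thymidylate synthase (tyms), which makes the DNA precursor dTMP, rose 3.02-fold, from 151, 122 and 122 to 485, 332 and 389 (adjusted p = 0.0103). The 2 enzymes that lead to GMP fell, impdh2 from 8003, 9590 and 7082 to 2488, 2749 and 2565 (3.14-fold, adjusted p = 1.2e-06) and gmps 2.12-fold (adjusted p = 0.00233). The neighbouring kinases nme2b.1 and nme2b.2 were called in opposite directions, 1.68-fold higher and 4.23-fold lower. Their reads are uncertain as those of near-identical copies, and the nme2b.1 call was lost without 48 h replicate 3 (adjusted p = 0.0624).

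Lists of ribosome biogenesis, tRNA charging, recombination repair and splicing were also counted. Of 59 nucleolus and ribosome biogenesis genes 2 rose and 1 fell, and of 20 tested cytosolic aminoacyl-tRNA synthetases 1 rose. Of 30 tested genes of recombination repair 1 rose. The risen shares, 3.39, 5 and 3.33%, lay near the 4.67% of all tested genes. The median of the repair list was 0.80. At equal column totals 3 synthetases and 2 repair genes were called higher. The ribosome assembly factor imp3 rose 5.11-fold, from 45, 20 and 98 to 218, 276 and 209 (adjusted p = 0.0105). Of 50 spliceosome and SR protein genes 6 fell and 1 rose, but with equal column totals 1 was called lower and 2 higher. The splicing factor srsf5a, at 7237, 6745 and 6976 against 3516, 3573 and 3848, was 1.92-fold lower (adjusted p = 8.0e-04).

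Genes known from zebrafish heart and fin regeneration, 55 tested, included 11 that rose and 5 that fell, with a median of 0.20. The sum of this list was 0.647 to 0.678% of all values in uninjured libraries, 1.12 to 1.26% at 48 h and 0.541 to 0.571% at 21 d. Without fibronectin 1b (fn1b), its most abundant member, the sum was 0.397 to 0.456, 0.538 to 0.689 and 0.365 to 0.41%. Among ligands, leptin b (lepb) was at 29, 1 and 0 in uninjured tissue, at 746, 724 and 1382 at 48 h and at 0 in each 21 d library (adjusted p = 0.00166). Interleukin 11a (il11a), a cytokine of the interleukin-6 family needed for regeneration in zebrafish, was at 25, 11 and 0 and then at 367, 464 and 652 (adjusted p = 7.3e-04). The chemokine cxcl12a rose 2.11-fold and insulin-like growth factor 2b (igf2b) 1.78-fold, from 3773, 3690 and 3348 to 5939, 6008 and 7309 (adjusted p = 0.00326). Midkine a (mdka), a heparin-binding growth factor, fell instead, from 7256, 8054 and 8793 to 904, 1689 and 3026 (4.81-fold, adjusted p = 0.0034).

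The cytokine feedback inhibitor socs3b was at 684, 1117 and 585 in uninjured tissue and at 2470, 3977 and 5290 at 48 h, 4.88-fold higher (adjusted p = 6.5e-04), and at 249, 349 and 679 at 21 d. Receptors were looked up after the ligand values were seen. The shared signalling chain il6st was at 6379, 5951 and 6189 and then at 10853, 10071 and 8449, which is 0.66 ± 0.16 (SE) on the log2 scale (adjusted p = 0.00814). The leptin receptor lepr (0.71 ± 0.26, adjusted p = 0.087) and the interleukin 11 receptor il11ra (−0.82 ± 0.34, adjusted p = 0.137) did not pass. The paralogue il11b read 18, 373 and 283 at 48 h against 0, 18 and 7, and its groups overlapped (adjusted p = 0.0985). With equal column totals lepr was called higher (adjusted p = 0.0208), and with a pseudocount of 5 il11b was (0.0317).

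Among matrix and transcription genes of the regeneration list, both fibronectins, known from the regenerating epicardium of zebrafish, rose. The transcript of fn1b was at 43081, 53913 and 37421 and then at 101381, 104151 and 87220 (2.2-fold, adjusted p = 2.4e-05), and fn1a rose 2.28-fold (adjusted p = 4.9e-04). The stress-induced transcription factor atf3 fell 2.3-fold, from 1683, 2851 and 1419 to 950, 988 and 592 (adjusted p = 0.00422), and lay at 4963, 3594 and 3572 at 21 d. The 5 decreases of this list became 2 with equal column totals, and 3 without 48 h replicate 2, uninjured replicate 2 or uninjured replicate 3.

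Retinoic acid, made from vitamin A, is a signal of the activated epicardium and endocardium in zebrafish. Enzymes of its synthesis rose while a carrier of vitamin A, a breakdown enzyme and some receptors fell. Of 24 tested members of the list 2 were higher and 6 lower (median −0.36). Aldehyde dehydrogenase aldh1a2, which makes retinoic acid, was at 2082, 2038 and 1667 in uninjured tissue, at 6167, 7958 and 9775 at 48 h and at 1421, 1961 and 2955 at 21 d. The log2 fold change at 48 h was 2.03 ± 0.24 (SE), 4.08-fold, with an adjusted p of 7.1e-06. The retinol dehydrogenase rdh10a, which supplies its substrate, rose 3.11-fold, from 526, 903 and 358 to 1992, 1721 and 1505 (adjusted p = 1.0e-03). The vitamin A carrier rbp4 fell 3.05-fold, from 12455, 9628 and 10814 to 3365, 3068 and 4413 (adjusted p = 1.5e-05). It also makes up most of the liver secreted list, whose sum was 0.0487 to 0.0706% in uninjured libraries and 0.0198 to 0.0356% at 48 h. The retinoic acid hydroxylase cyp26b1 went from 3801, 4128 and 4757 to 1117, 1292 and 1762, 3.08-fold lower (adjusted p = 5.2e-04). The receptors rxrbb and rarga fell 3.16-fold and 2.32-fold. With equal column totals 5 members were called lower and 2 higher.

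**Figure D5:**
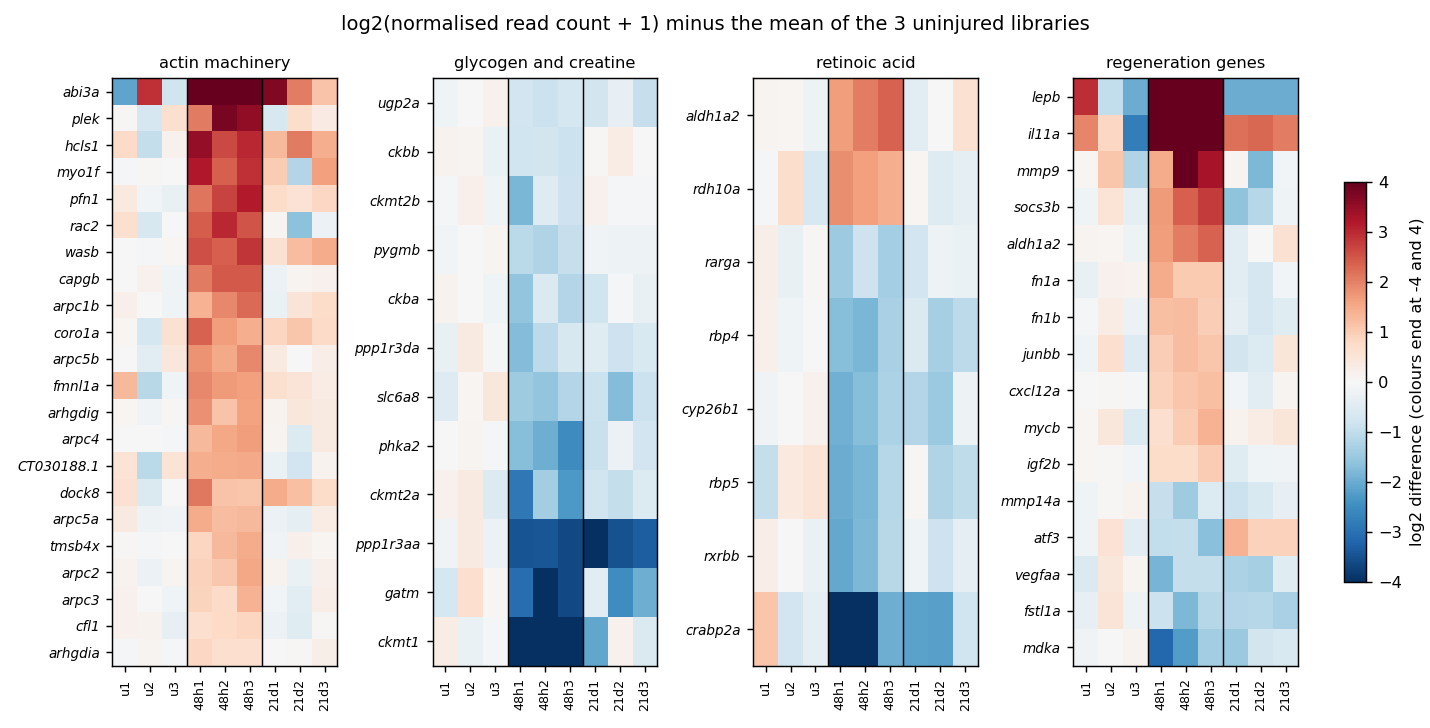
Heat maps of the members that passed the threshold in 4 lists, 1 row per gene and 1 column per library (u, uninjured; 48h; 21d), coloured by log2(normalised read count + 1) minus the mean of the 3 uninjured libraries, with colours ending at −4 and 4. The 48 h columns are red for all 22 actin machinery genes and blue for all 12 glycogen and creatine genes, while the retinoic acid and regeneration panels hold both colours.

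Genes of adhesion and of force on the matrix were divided. Of 58 focal adhesion genes 9 rose and 7 fell, with a median of 0.01. The actin elongation factor vaspb was at 607, 731 and 636 and then at 2224, 3910 and 2960 (4.5-fold, adjusted p = 4.0e-06). Filamin A (flna), which links actin to integrins, rose 2.19-fold, from 9117, 8415 and 8529 to 20588, 16855 and 19869 (adjusted p = 9.3e-05). The crosslinker actn1 and the adaptor lims1 rose 2.04-fold and 1.86-fold. The opposite held for tensin (tns1a), at 7726, 5598 and 4389 against 2643, 2428 and 1513 (2.69-fold lower, adjusted p = 1.9e-04). The muscle LIM proteins fhl1a and fhl2b fell 1.9-fold and 2.82-fold, beside cardiomyocyte markers that fell from 4.81 to 5.93% of all values to 3.49 to 3.87%; the part of that shift in these decreases was not tested. With equal column totals 3 members were called lower, and without 48 h replicate 3 there were 4. In the Hippo list 2 of 31 tested members rose, birc5a and ctgfa, and 3 fell (median −0.11). These were 6.45% and 9.68%, against 4.67% and 6.82% of all tested genes. With equal column totals 3 were higher and 1 lower. The member ctgfb, a matrix-bound target of YAP and TAZ, fell 4.6-fold, from 781, 892 and 1007 to 160, 181 and 245 (adjusted p = 1.5e-04). It was at 178, 194 and 284 at 21 d.

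Guidance and junction genes were called in both directions, at shares near those of all tested genes. The receptor robo4, which acts in vessel walls, was at 90, 191 and 154 and then at 943, 871 and 599 (5.67-fold, adjusted p = 4.4e-04). Its relative's ligand slit2 rose 2.03-fold (adjusted p = 0.00408). The tight junction protein cldn5b rose 3.8-fold, from 872, 341 and 415 to 1581, 2570 and 1679 (adjusted p = 0.00119). The repulsive ligand sema3e fell 4.16-fold, from 347, 173 and 259 to 64, 57 and 57 (adjusted p = 0.00586), and the cadherin cdh13 2.56-fold (adjusted p = 0.00534). The caveolar coat protein cavin1a fell 2.26-fold. Over the whole lists, 4 of 59 guidance genes rose and 5 fell, and 2 of 38 junction genes rose and 2 fell. The shares were 6.78% and 8.47% for guidance and 5.26% and 5.26% for junctions. Over all tested genes they were 4.67% and 6.82%. Scaled to equal column totals, 9 guidance genes were higher and 3 lower, and 7 junction genes were higher. The guidance increases became 2 without 48 h replicate 1 or uninjured replicate 2. Its decreases became 2 without 48 h replicate 2 or uninjured replicate 2, 1 without uninjured replicate 1 and 3 without uninjured replicate 3. For junctions 1 increase was called without 48 h replicate 2 or uninjured replicate 1 or 2, and 4 decreases without uninjured replicate 3.

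Of 25 tested endothelial and endocardial markers 4 rose and 3 fell, with a median of −0.01. The largest rise, 2.16 on the log2 scale, was that of the junction protein esama, given above. The vascular growth factor receptors flt1 (−0.86 ± 0.22 (SE) on the log2 scale, adjusted p = 0.0136) and kdr (−0.77 ± 0.21, adjusted p = 0.0214) were lower, as was the flow-responsive transcription factor klf2a (−0.76 ± 0.18, adjusted p = 0.00684). The counts were 7 higher and 0 lower with equal column totals. Without uninjured replicate 2, 2 were called higher, and without uninjured replicate 1, 1 was called lower. The kdr call was lost without 48 h replicate 2 or 3 or uninjured replicate 1 or 3, and that of flt1 without uninjured replicate 1. Endothelial and endocardial markers summed to 0.275, 0.296 and 0.453% at 48 h, which overlaps the uninjured range of 0.189 to 0.276%.

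Of 44 cilium genes 2 rose and 2 fell, and of 41 vasoactive genes 1 rose and 2 fell. The shares, 4.55% and 4.55% of cilium and 2.44% and 4.88% of vasoactive genes, lay below the 4.67% and 6.82% of all tested genes. These counts depend on the scaling, with 4 cilium and 6 vasoactive genes called higher at equal column totals. The kinesin subunit kif3a, which carries cargo into cilia, rose 2.95-fold, from 241, 244 and 239 to 661, 864 and 639 (adjusted p = 0.00399). Of Hedgehog signalling, the transcription factor gli1 fell 3.3-fold, from 553, 376 and 656 to 135, 107 and 258 (adjusted p = 0.00715), and its inhibitor sufu 1.93-fold (adjusted p = 0.0062). The natriuretic peptide clearance receptor npr3 fell 3.18-fold, from 1233, 1215 and 1405 to 494, 257 and 514 (adjusted p = 3.4e-04).

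Energy stores formed the process list with the largest share of decreases. Of 37 tested genes of glycogen, creatine and high-energy phosphate, 12 fell and 0 rose, with a median of −0.43. The glycogen-targeting phosphatase subunit ppp1r3aa was at 2228, 3182 and 2111 in uninjured tissue and at 224, 229 and 200 at 48 h. Its log2 fold change was −3.50 ± 0.31 (SE), 11.3-fold lower, with an adjusted p of 2.3e-07. At 21 d it read 130, 220 and 252, values that overlap those at 48 h. Phosphorylase kinase phka2, which switches on glycogen breakdown, fell 4.16-fold, from 8723, 9562 and 8384 to 2714, 2287 and 1558 (adjusted p = 1.4e-06). Glycogen phosphorylase pygmb fell 2.09-fold, from 10431, 11134 and 11999 to 5317, 4817 and 5926 (adjusted p = 7.2e-05). The mitochondrial creatine kinases also went down: ckmt2a fell 4.55-fold (adjusted p = 1.5e-04) and ckmt1 was at 161, 107 and 126 against 6, 1 and 6 (adjusted p = 0.00614). With equal column totals 9 members were called lower and 3 higher.

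The fatty-acid and branched-chain lists followed in the same direction, while 2 other lipid lists were mixed. In fatty-acid synthesis and triglyceride turnover 5 of 32 members fell and 0 rose (median −0.35). The lipogenic regulator mid1ip1l was at 4357, 4577 and 4232 and then at 333, 627 and 375 (10.2-fold lower, adjusted p = 4.0e-08), and at 1174, 1082 and 762 at 21 d. The phosphatidate phosphatase lpin2, which makes diacylglycerol, fell 2.63-fold, and the acetyl-CoA carboxylase acacb 2.35-fold. In cholesterol synthesis 4 of 30 members fell and 1 rose (median −0.03). With equal column totals 1 member was called lower and 2 higher. The decreases were 1 to 4 when a library was left out. The sterol sensor insig1 fell 3.76-fold, from 1223, 1418 and 1486 to 697, 333 and 207 (adjusted p = 7.9e-04). In macrophage lipid handling 2 of 22 members rose and 2 fell (median 0.07). The sum of that list was 0.0819 to 0.0972% in uninjured libraries and 0.102 to 0.12% at 48 h. Its summed normalised counts, 18871, 17700 and 16119 in uninjured libraries and 19174, 21098 and 15748 at 48 h, overlap. In this list the mitochondrial coactivator ppargc1a fell 4.69-fold, from 984, 630 and 1380 to 311, 171 and 154 (adjusted p = 1.6e-04). The lipid carrier fabp11a rose 2.39-fold (adjusted p = 5.8e-04). In branched-chain and ketone catabolism 5 of 29 genes fell and 0 rose. That count was 1 with equal column totals or without uninjured replicate 1 or 2, 2 without 48 h replicate 3 and 3 without 48 h replicate 1 or 2. For fatty-acid synthesis it was 3 without uninjured replicate 2 or 3.

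Amino-acid genes were led by decreases in glutamate and alanine metabolism. Of 32 genes of serine, glycine, proline and one-carbon synthesis 8 fell and 2 rose. Glutamine synthetase glula was at 4891, 2769 and 2563 and then at 403, 825 and 379 (6.5-fold lower, adjusted p = 3.0e-05). The transaminase gpt2l fell 6.97-fold, from 1706, 1055 and 1574 to 247, 162 and 206 (adjusted p = 4.0e-06). The mTOR inhibitor ddit4 fell 4.14-fold, from 7246, 5240 and 6078 to 1137, 1646 and 1740 (adjusted p = 7.3e-07). In contrast the amino-acid stress factor atf4a rose 1.89-fold (adjusted p = 0.00395). The methyl-cycle enzyme ahcy rose 2.25-fold, from 729, 809 and 831 to 1654, 2118 and 1601 (adjusted p = 0.00165). With equal column totals 3 members were called lower and 3 higher. The 8 decreases became 5 without uninjured replicate 1 or 2.

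In the autophagy list 4 of 40 members fell and 1 rose, with a median of −0.11. These were 10% and 2.5%, against 6.82% and 4.67% of all tested genes. The initiating kinase ulk2 was at 5705, 3558 and 3848 in uninjured libraries and at 450, 644 and 561 at 48 h. It was 7.82-fold lower (adjusted p = 3.0e-08) and read 3125, 3037 and 3456 at 21 d. The mitophagy receptor bnip3lb fell 3.69-fold, from 17916, 30820 and 19766 to 4656, 8109 and 5745 (adjusted p = 6.3e-06), and the cargo receptor nbr1b 2.21-fold. Foreign-compound metabolism had 8 of 44 members lower and 1 higher (median −0.51), 4 lower with equal column totals. Of targets of the aryl hydrocarbon receptor, tiparp fell 3.86-fold (adjusted p = 1.3e-06) and cyp1b1 3.38-fold (adjusted p = 1.6e-04). The glutathione transferase gstp1 fell 3.08-fold, from 2025, 3040 and 3426 to 949, 979 and 772 (adjusted p = 7.2e-05). In the separate prostaglandin and leukotriene list 2 of 34 tested members fell and 0 rose, with a median of 0.49. The fallen share, 5.88%, lay near the 6.82% of all tested genes. Of its members the prostaglandin E synthase relative ptges3a fell 3.56-fold, from 3491, 4715 and 2997 to 920, 907 and 1306 (adjusted p = 2.0e-05).

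Channel and pump genes were called lower more often than higher under the deposited scaling, as were heart-muscle markers. Of 51 tested channel and pump genes 11 were lower and 1 higher (median −0.30), and of 23 cardiomyocyte markers 14 were lower and 0 higher (median −0.79). The calcium release channel ryr1b was at 2374, 1876 and 1147 and then at 597, 376 and 610 (3.34-fold lower, adjusted p = 2.6e-04), and the potassium channel subunit kcne4 fell 2.8-fold (adjusted p = 0.00422). Cardiac actin (actc1a) fell 3.5-fold, from 97542, 143268 and 131418 to 33532, 41533 and 30788 (adjusted p = 8.9e-07). The sarcomere protein tcap fell 4.18-fold, from 14234, 12673 and 8779 to 3531, 2607 and 2346 (adjusted p = 4.9e-07), and stood at 14534, 13309 and 16724 at 21 d. With equal column totals 2 channel genes were called lower and 3 higher, with a median of −0.02, so the direction depends on the scaling. Of the muscle markers 8 were then lower and 2 higher. Without 48 h replicate 3 there were 6 lower channel genes, and without uninjured replicate 1 there were 7. Fast skeletal muscle markers summed to 0.389 to 0.482% in uninjured libraries and 0.189 to 0.295% at 48 h, and 1 of 9 tested fell. The part of the heart and skeletal muscle markers in the changes of the channel and energy-store lists was not tested.

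Of the resident valve cells, 13 of 21 interstitial and fibroblast markers fell and 2 rose, with a median of −1.37, and 12 fell with equal column totals. Decorin (dcn), a collagen-binding proteoglycan, was at 37281, 39409 and 35746 and then at 9474, 9764 and 12083 (3.61-fold lower, adjusted p = 4.3e-08). Of mural and smooth muscle markers 7 of 21 fell and 0 rose, and with equal column totals 3 fell and 2 rose. This list holds elnb and fbln5, given above, and elnb stands in the interstitial list too. Of epithelial keratins, krt4 fell from 26134, 24529 and 29247 to 7023, 7379 and 9891 (3.32-fold, adjusted p = 3.2e-07) and krt15 2.77-fold (adjusted p = 8.3e-04). Skin and gut epithelium markers summed to 0.316 to 0.394% in uninjured libraries and 0.135 to 0.224% at 48 h.

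Among blood markers, red cell markers summed to 4.01, 8.34 and 5.61% in uninjured libraries and 3.85, 4.49 and 2.09% at 48 h, which overlap, and 4 of 21 fell and 1 rose. The red cell nucleotidase nt5c2l1 fell 8.37-fold, from 49098, 61965 and 41038 to 4223, 5810 and 8683 (adjusted p = 1.5e-07), whereas the erythroid transcription factor gata1a rose 3.83-fold, from 87, 305 and 338 to 664, 776 and 995 (adjusted p = 0.0034). Thrombocyte markers summed to 0.114 to 0.13% in uninjured libraries and 0.145 to 0.163% at 48 h, which do not overlap. Of 14 tested 3 rose and 2 fell. The largest decrease was that of f13a1a.1, given above. The largest rise was that of sele, described above as an endothelial lectin. The other risen members, gata1a and fli1a, stand also in the red cell and the endothelial list. The fli1a call was lost without uninjured replicate 2 (adjusted p = 0.0536). The sum is therefore not one of thrombocyte genes alone. The summed normalised counts, 23416, 24712 and 24588 in uninjured libraries and 25503, 29340 and 22249 at 48 h, overlap. Of 28 matched lymphocyte and mast cell markers 10 were tested and 2 rose, and cd8a, cd8b, rorc and pax5 were at 0 in all 6 libraries of uninjured and 48 h tissue. Of 8 matched pituitary genes gh1 alone passed the filter, at 36019, 37953 and 40083 against 366, 703 and 319 at 48 h. Of the 779 risen genes 1, 3 and 1 lay within the uninjured range in replicates 1, 2 and 3, and of the 1137 fallen genes 10, 7 and 1. Low counts follow here from the choice of called genes. Calls fell to 514 higher genes without 48 h replicate 3, and 339 of the risen and 596 of the fallen genes were called whichever of the 6 libraries was left out.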

How the data were processed

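Per the submitters' processing notes, reads were checked with FastQC 0.11.8, trimmed with Trimmomatic 0.33, aligned to danRer11 (GRCz11) with STAR 2.6.0c, counted per gene with featureCounts 1.6.0 and normalised with DESeq2 1.18.1. The deposited values are a score, that is, whole numbers obtained by dividing gene counts by the size factor of each library. Size factors estimated from the spacing of low values ran from 0.852 to 1.398. Whether molecular indexes were used is not given in the sources used here. Since these are not raw counts, no count model was fitted, although the plan allowed for one.

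Values were log2-transformed after adding 1 and fitted with limma 3.58.1 (R 4.3.3) over all 9 libraries, with a mean-variance trend and robust empirical Bayes, two-sided, Benjamini-Hochberg over 16665 genes, threshold 0.05. Folds are differences of mean log2(value + 1). Adding 1 shrinks the ratio between low values. A library at or near 0 can instead raise a fold above the ratio of the group means. The arhgef9a change, between means of 428 in uninjured and 33.7 in 48 h libraries, was −5.09 on the log2 scale. It was −3.30 without 48 h replicate 2, which was at 0. Of 1800 list entries 1578 matched a gene. The fit was also run on simulated counts, and the outcome is not given here. Their spread followed the mean level alone, so they cannot show how the fit treats genes with unequal libraries. Members and lists were chosen with earlier results of these data known. Named genes are the 12 highest and 12 lowest changes at a mean log2 value of at least 6 without overlap, 2 per direction and list, and the genes listed at 0; other list members, and genes outside the lists, were named after their values were seen. Alternatives covered pseudocount, filter, scaling, fit, weights, a replicate block and leaving out each library. The reference tables used are of another genome build, so no coordinates are given. Figures were drawn with matplotlib 3.10.9 under Python 3.11.15, from tables made with pandas 2.3.3.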

Additional observations from a re-analysis of the deposited data

How the results depend on the processing

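With equal column totals 1347 genes were higher and 652 lower, and without a mean-variance trend 348 and 450, against 779 and 1137. Leaving out 1 library gave 514 to 659 higher and 773 to 1112 lower genes. The other settings run (pseudocount 0.5 or 5, no filter or a minimum of 50, quantile normalization, 2 groups in the fit, no robust step, array weights) stayed within 1.5 times of both counts. The replicate number as a block gave 746 and 1151. Deviations of same-numbered libraries correlated at −0.016, 0.031 and −0.018, and not every library correlated best with its own number. With 3 libraries a group such deviations can neither show nor exclude a shared fish or day. The labels do not say what the number stands for. Of 340 genes followed (called list members, the largest changes, the genes listed at 0 and 4 added later), none changed sign in a setting that tested it. At least 1 setting ended the call of 215 of them, and leaving out a library that of 145. Genes named in the report as called kept their call without any single library unless stated there, except havcr2. The havcr2 call was lost without 48 h replicate 2 or 3. Without the trend 189 of the 340 lost theirs, and 60 of the 92 list counts (46 lists, each direction) shrank by over 1.5 times; the red cell list had 9 decreases without the robust step. The cause of these shifts was not tested. The planned description of promoter motifs was not run, since no sequence table was used here. Counting error was not modelled separately, so low values are the least certain.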
